A study of Rattus norvegicus with 22 samples.

Results

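The rat miRNA names numbered 3000 or higher were examined in small RNA libraries of the hippocampus. They were chosen by name alone, as every name of the form rno-miR-N with N of at least 3000, whatever its letter, copy or arm. There were 51 such names among 468 distinct names in the deposited tables. Of these, 42 ran from miR-3065-3p to miR-3596d and 9 ran from miR-6215 to miR-6331. The number cut was placed between miR-2985, with a mean of 3.03 reads per 1000000 miRNA reads (RPM), and miR-3065-3p, with a mean of 180 RPM. The prefix rno- is left out of all names below.

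The libraries came from male Long Evans rats, a wild-type outbred strain, that were 14 weeks old at collection. The 11 CPF libraries came from rats injected under the skin each day with chlorpyrifos (CPF), an organophosphate insecticide that inhibits acetylcholinesterase, at 10 mg per kg body weight for 21 days. The 11 Control libraries came from rats given peanut oil, the vehicle, by the same route for the same time. RNA was isolated from CA1, a subfield of the hippocampus, so both groups hold a mixture of neurons, glia and vessel cells. The labels describe one cohort that went through fear conditioning and another that did not, without saying which library belongs to which, and they identify no animals. P-values therefore measure only the spread between these libraries.

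A miRNA gene is transcribed into a hairpin, from which Dicer releases a short duplex. One strand of it is loaded into Argonaute and pairs with target mRNAs mainly through its seed, bases 2 to 8. Numbers in miRNA names follow the order in which names were registered, so that a high number marks a late entry and not a family. Some late entries lie on the DNA strand opposite a miRNA that was registered earlier. Their RNAs are the reverse complement of the older miRNA, with another seed, and their reads can be separated only if the counting uses the strand.

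By name, 47 of the 51 late-numbered miRNAs were matched to RefSeq sequences placed on the rat build GRCr8, with lengths of 20 to 25 bases. The names not matched were miR-3568, miR-3582, miR-3586-3p and miR-6318. The mature RNA of 25 matched members overlapped that of another miRNA on the opposite strand, and 24 of these had their partner among the names in the files. The remaining one, miR-3120, overlapped miR-214-5p by 1 base. No matched member overlapped another miRNA gene on its own strand. The sequences below are those on which the comparison of names turns, with the seed in capitals and each late-numbered RNA followed by its opposite-strand partner. The first pairs share both ends, in the next pairs the late-numbered RNA is the longer, and in the last pairs the partner is the longer or the ends are offset.

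miR-3574: uCAGCCGCugucacacgcacag

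miR-210-3p: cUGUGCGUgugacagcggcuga

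miR-3570: gGUACAAUcaacggucgauggu

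miR-181a-1-3p: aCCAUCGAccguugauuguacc

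miR-3588: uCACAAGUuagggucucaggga

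miR-125b-5p: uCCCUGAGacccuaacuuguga

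miR-3596a: aACUAUACaaccuacuaccuca

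let-7a-5p: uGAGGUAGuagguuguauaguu

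miR-3557-5p: gCCUUCUGacuccaaguccagu

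miR-378a-3p: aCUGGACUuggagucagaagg

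miR-3553: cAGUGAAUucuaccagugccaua

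miR-183-5p: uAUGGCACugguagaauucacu

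miR-3543: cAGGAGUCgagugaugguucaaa

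miR-434-3p: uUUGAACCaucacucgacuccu

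miR-3596d: cUAUACAAucuacuaccuca

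let-7f-5p: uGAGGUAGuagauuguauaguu

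miR-3065-3p: uCAGCACCaggauauuguugggga

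miR-338-5p: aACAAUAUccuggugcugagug

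Members without an opposite-strand partner are represented by the most abundant of them that RefSeq holds.

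miR-6331: cUUUGGUGgcuuaguucuuugugc

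miR-3068-5p: uUGGAGUUcaugcaaguucuaacca

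miR-3099: uAGGCUAGaaagagguugggga

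The 47 matched members had 47 distinct seeds. Only miR-3596d had the seed of other names in the files, 5 passenger-arm RNAs of the let-7 and miR-98 genes (let-7a-1-3p, let-7b-3p, let-7c-2-3p, let-7f-1-3p and miR-98-3p). In GRCr8, miR-3574 lies at chr1:205755946-205755967 on the plus strand, and miR-210-3p covers the same bases on the minus strand. miR-3588 lies at chr11:29732588-29732609 on the minus strand, opposite miR-125b-5p. miR-3543 lies at chr6:134330451-134330473 on the minus strand, 1 base longer than miR-434-3p opposite it. miR-3557-5p lies at chr18:57128924-57128945 on the plus strand, within the span of Ppargc1b, a coactivator gene of mitochondrial metabolism that is read from the other strand and hosts miR-378a.

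Depth was modest. The tables give RPM, and most of their low values are multiples of what 1 read was worth, 10.53 to 20.9 RPM, which gives 47844 to 94982 miRNA reads per library (Control 70880 ± 6709, CPF 74134 ± 12857, SD, n = 11 each). The others are fractions of a read, and in 8 libraries the lowest value above 0 was under 0.45 read (such as 0.11 RPM for miR-3590-5p). A mean of 3 reads, the floor used here, therefore stood for 31.6 to 62.7 RPM, and the reads cover counting error only. The 13 neuronal marker names summed to 51987 to 76325 RPM in Control and 48305 to 75545 RPM in CPF, mostly from miR-9a-5p (34986 to 60622 RPM). miR-124-3p stood at 398 to 1126 RPM, and 6 of the 13, all minor arms, were at 0 in at least 1 library. Vessel muscle markers, 3 names, stood higher, at 220145 to 281715 RPM in Control and 218909 to 311721 RPM in CPF, nearly all miR-143-3p. Oligodendrocyte markers, 4 names, summed to 47329 to 90058 RPM in Control and 33453 to 81828 RPM in CPF. Endothelial markers, 2 names, summed to 1632 to 2323 and 1613 to 2252 RPM. The summed choroid plexus and ependyma markers, 9 names, ranged from 580 to 1097 RPM in Control and from 635 to 8005 RPM in CPF, and the 4 red cell markers from 12.6 to 65.9 and from 0 to 79.5 RPM. The part of these cells in the results below was not tested, beyond leaving out the 3 CPF libraries highest in choroid plexus markers (replicates 7, 8 and 9). In bulk RNA, fewer cells of a type and less RNA per cell cannot be told apart.

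Most late-numbered names were rare. Of the 51, 15 had a mean of at least 3 reads, 32 were seen below that, and 4 were listed at 0 in every library. 18 names were above 0 in only 1 to 5 libraries, and a library held 23 to 29 names above 0 (Control 25.5 ± 1.63, CPF 26.6 ± 1.21, SD, n = 11 each). Together the 51 names held 4.81 ± 0.356% of RPM in Control and 4.83 ± 0.352% in CPF. Nearly all of that was miR-3586-3p, since the other 50 names held 0.628 ± 0.0681% and 0.655 ± 0.0564%.

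miR-3586-3p ranked 7 of 468 names by mean level. It ranged from 37452 to 51540 RPM in Control (median 40741) and from 36482 to 47149 RPM in CPF (median 41244). The groups overlapped over most of their range. miR-3557-5p, opposite miR-378a-3p, came next at rank 32, with 1977 to 3540 RPM in Control (median 2973) and 2558 to 3996 RPM in CPF (median 3377). No library of miR-3557-5p reached the lowest library of miR-3586-3p.

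miR-6331 ranged from 606.18 to 1308 RPM in Control (median 901) and from 537 to 1140 RPM in CPF (median 991). Its RNA lies on the plus strand of the Dlk1-Dio3 end of chromosome 6, an imprinted region whose many miRNAs are abundant in brain. miR-3068-5p ranged from 595 to 791 RPM in Control (median 707) and from 507 to 814 RPM in CPF (median 612). Its hairpin lies in Alkbh1, a nucleic acid demethylase gene, on the same strand. miR-3588 ranged from 295 to 512 RPM in Control (median 370) and from 233 to 446 RPM in CPF (median 299). miR-3557-5p was above miR-6331 in every library, while the ranges of miR-6331 and miR-3068-5p overlapped and those of miR-3068-5p and miR-3588 only touched.

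The next members overlapped one another. miR-3099 ranged from 63.0 to 274 RPM in Control (median 183) and from 86.6 to 300 RPM in CPF (median 189). miR-3065-3p, opposite the oligodendrocyte miRNA gene miR-338 in Aatk, ranged from 157 to 276 RPM in Control (median 197) and from 81.1 to 289 RPM in CPF (median 152). miR-3553, opposite miR-183, a miRNA of sensory organs, had the widest spread of them, from 14.97 to 520 RPM in Control (median 130) and from 66.3 to 281 RPM in CPF (median 147). The lowest and the highest Control library of miR-3553 enclosed all its CPF libraries. miR-6329, opposite the span of the cytoskeletal linker gene Rdx, ranged from 28.9 to 180 RPM in Control (median 84.5) and from 53.0 to 173 RPM in CPF (median 97.3). miR-3596a, opposite let-7a, a miRNA of developmental timing and neuronal differentiation, ranged from 54.9 to 150 RPM in Control (median 77.4) and from 57.4 to 125 RPM in CPF (median 92.8). The groups of all these names overlapped.

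The other names with at least 3 reads on average were miR-3068-3p (mean 88.0 RPM), miR-3543 (87.6), miR-6321 (66.8), miR-3574 (53.8) and miR-3589 (47.4). miR-6321 lies on the strand of Rufy3, a gene of neuronal polarity. The highest below the floor were miR-3570 (40.1 RPM), miR-3547 (38.7), miR-6324 (36.5) and miR-6215 (30.3). miR-3570 was above 0 in 22 of 22 libraries, as were all names over the floor except miR-3589, which was listed at 0 in 1 Control library.

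**Figure D1:**
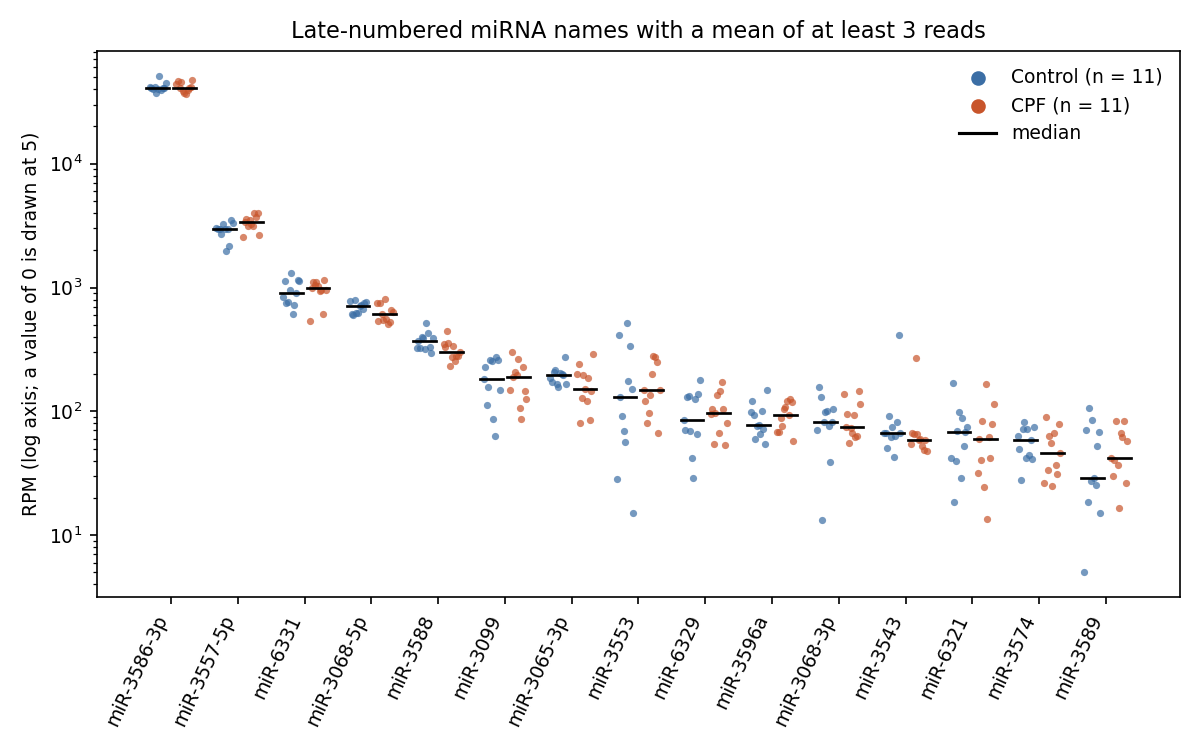
Levels of the 15 late-numbered names with a mean of at least 3 reads, in RPM on a log axis (a value of 0 is drawn at 5), 1 point per library and a bar at each group median. miR-3586-3p stands at 36482 RPM or more in every library, and Control and CPF points overlap for every name.

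Identical values were found first by comparing names without regard to sequence. 9 of the 51 members had a lower-numbered name with equal RPM in every library that held both. Of these 9, 6 had a partner covering exactly the same bases on the opposite strand: miR-3557-3p with miR-378a-5p (16 libraries above 0), miR-3570 with miR-181a-1-3p (22), miR-3574 with miR-210-3p (22), miR-3576 with miR-539-5p (6), miR-3578 with miR-369-5p (18) and miR-3592 with miR-382-3p (4). miR-3596a was equal in 22 of 22 libraries to a name let-7a, given without an arm beside let-7a-5p. The other 2, miR-3568 (equal to miR-19a-5p, miR-223-3p, miR-743b-3p and miR-743b-5p) and miR-3579 (equal to miR-673-3p), were above 0 in 1 library only, at about 1 read, where any names seen once in that library coincide. Where equality within 1 read sufficed, 20 members had such a name, and where 5 libraries above 0 were required, 6 did.

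Many of the equal values were fractions of reads, in 12 of 22 libraries for miR-3574 and in 11 of 22 for miR-3570. miR-3574 and miR-210-3p, a miRNA induced by low oxygen, each stood at 1.5 to 6.0 reads in Control (median 4.5) and at 1.5 to 6.0 reads in CPF (median 4.0), and their sum was a whole number in 22 of 22 libraries. Both groups spanned the same range. miR-3570 and miR-181a-1-3p, the passenger arm of a brain-enriched miRNA, each stood at 1.0 to 4.5 reads in Control and at 0.5 to 5.5 in CPF, with whole sums of 2.0 to 9.0 and 1.0 to 11.0. Each name of these pairs thus held 50.0% of the reads in every library where the sum was above 0.

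Fractions were largely a property of the paired names. Among values above 0 and up to 20 reads, 114 of 226 (50.4%) in members with a partner were not whole within 0.05 read, and 78 of these were odd multiples of 0.5 read. In the other 27 members 1 of 231 values (0.4%) was not whole. They include the 4 names not matched to RefSeq, for which a partner is not known. The value that was not whole belonged to miR-3582, which is among these. The partners had 81 of 237 (34.2%), and the other lower-numbered names 24 of 3261 (0.7%), which came from 4 of 392 names. When both names of a pair were added, 413 of 426 sums above 0 were whole. The 13 exceptions were all sums of miR-3596a with let-7a-5p, and miR-3596a added to let-7a was whole in 22 of 22. The submitters' sources do not state that the counting used strand, so the reads of a member and its opposite-strand partner cannot be told apart.

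How the reads fell on a pair went with the ends of the RefSeq mature RNAs, which sort the 24 pairs into 4 kinds. The annotation used in the counting is not stated, and its ends may differ from these. In 8 pairs both RNAs shared both ends, and 6 of these were equal in every library, as above. miR-3596a was the first exception, with a mean of 6.48 reads against 12.45 for let-7a-5p. miR-3588 was the second, with a mean of 24.8 reads against 73.7 for miR-125b-5p, an abundant neuronal miRNA. Its share of the reads of both names was 20.9 to 30.4% (median 24.3%). The name miR-125b-5p stood on several rows, which were summed, so its reads may include those of a gene elsewhere. Whether the rows differ in this was not tested. The summed reads of this pair were 60.0 to 146 in Control (median 95) and 62.0 to 154 in CPF (median 89.0), and the groups overlapped.

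In 4 pairs the late-numbered RNA contained the whole partner and was longer. In 3 of these the lower-numbered name was listed at 0 in every library that held it. They were miR-378a-3p, known from energy metabolism, with a mean of 225.41 reads under miR-3557-5p, miR-183-5p, with 12.41 reads under miR-3553, and miR-505-3p, with 3.38 reads under miR-3589 in the libraries that hold both names. In a single library a listed 0 means no reads under the name, at a depth where 3 reads are 31.6 to 62.7 RPM. It does not stand for absence of the RNA, since the reads of both names of a pair cannot be told apart. The exception was miR-3543, with a mean of 6.37 reads against 42.58 under miR-434-3p.

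In 6 pairs the partner contained the late-numbered RNA. In 4 of these the late-numbered name was the one at 0 in every library: miR-3556b beside 33.95 reads of miR-29c-3p, miR-3596b beside 16.05 reads of let-7d-5p, miR-3596c beside 7.14 reads of let-7e-5p, and miR-3596d beside 77.23 reads of let-7f-5p. miR-3590-5p was above 0 in 2 libraries, at no more than 0.11 RPM, beside 238.04 reads of miR-130a-3p. miR-3560 was the exception, with 90.7% of the reads in 3 of the 5 libraries where it or miR-501-3p was above 0. Of the 14 names listed at 0 in every library, 4 were these members and 3 were the partners named in the paragraph above.

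In the 6 pairs with offset ends both names held reads in at least 1 library. miR-3065-3p had a mean of 13.27 reads against 160.04 for miR-338-5p, a share of 4.3 to 11.0% (median 7.6%). miR-3546, on the strand opposite the heart myosin gene Myh6, had 0.84 against 7.29 reads for miR-208a-5p. miR-3544 held all reads of its pair with miR-337-5p in 12 of the 16 libraries where either was above 0. miR-3074, opposite miR-24-1-5p, was above 0 in 1 library, miR-3571, opposite the muscle miRNA miR-1-3p, in 3, and miR-3579, opposite miR-380-5p, in 1.

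**Figure D2:**
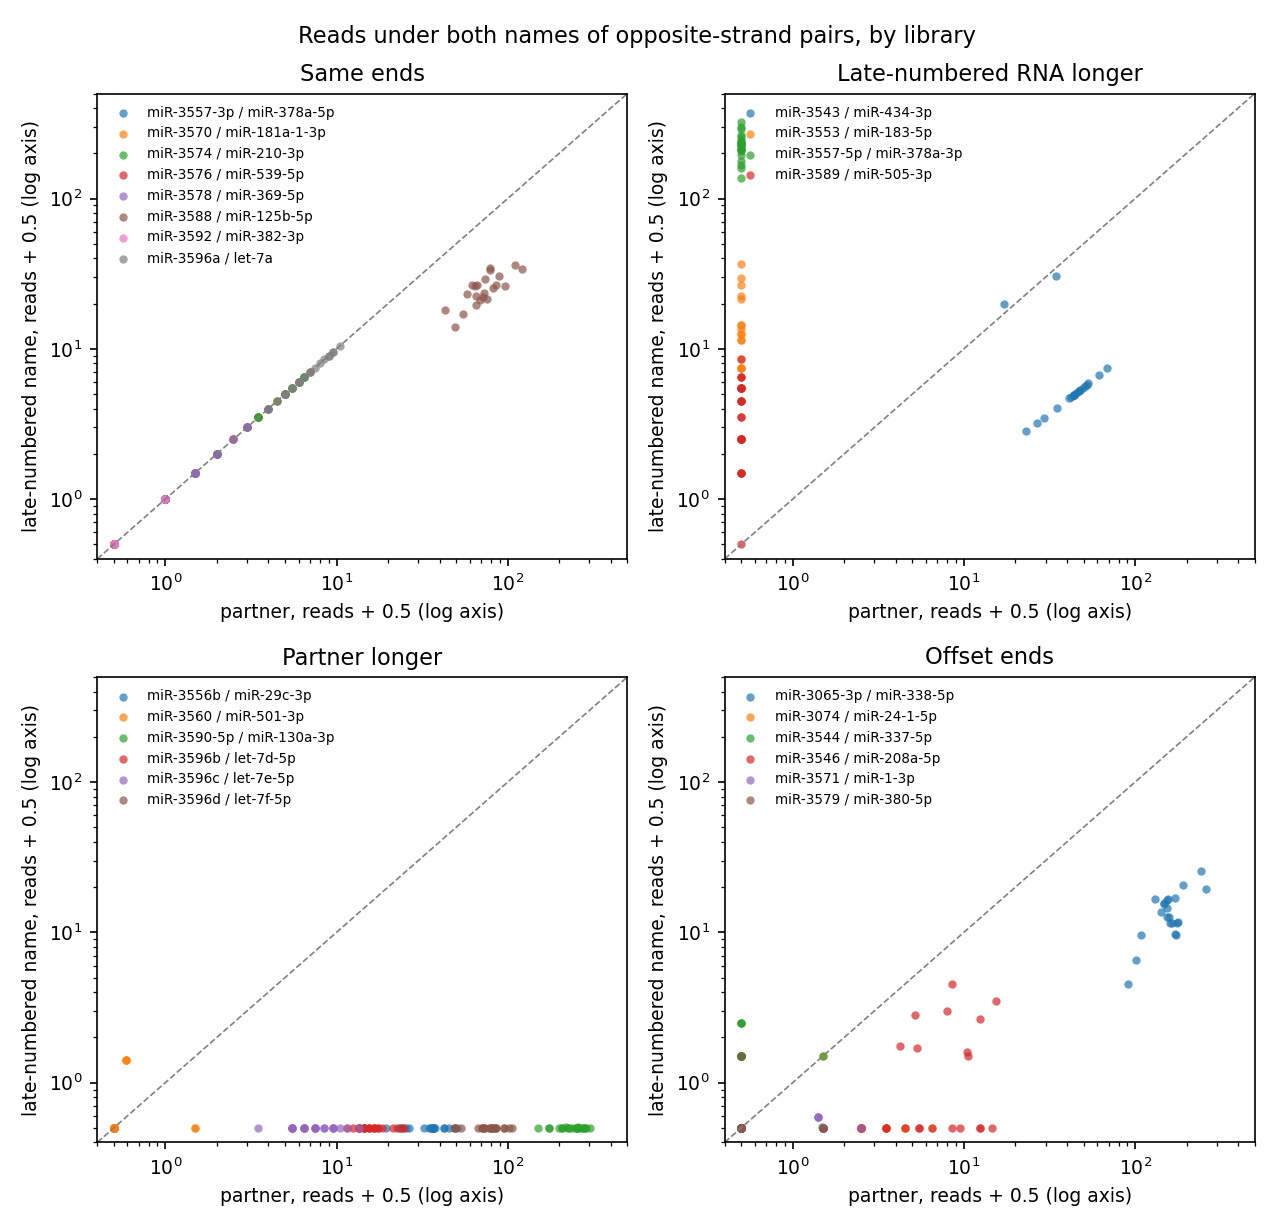
Recovered reads under the late-numbered name against those under its opposite-strand partner, 1 point per library, both axes log with 0.5 added, in 4 panels by which RNA is longer (let-7a stands for let-7a-5p). Equal pairs lie on the dashed line, miR-3588 lies below it, and 3 of 4 pairs with a longer late-numbered RNA lie on the left edge, where the partner is at 0.

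miR-3543 and miR-434-3p divided their reads in a nearly fixed proportion with 2 exceptions. miR-434 belongs to the Dlk1-Dio3 region and is expressed in brain. The sum of both names was whole in every library, from 25.0 to 75.0 reads in 20 libraries, and miR-3543 held 9.3% of it in each of these, which is 42.9 to 91.8 RPM. In Control replicate 10 it held 47.0%, 30.06 reads against 33.94 (412 RPM), and in CPF replicate 4 it held 53.8%, 19.38 reads against 16.62 (270 RPM). The sums in these libraries, 64.0 and 36.0 reads, lay within the range of the others. The same 9.3% was found for miR-3571 beside miR-1-3p in 3 of 9 libraries with either name above 0, and its complement, 90.7%, for miR-3560, as given above. The origin of this fixed share was not tested.

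**Figure D3:**
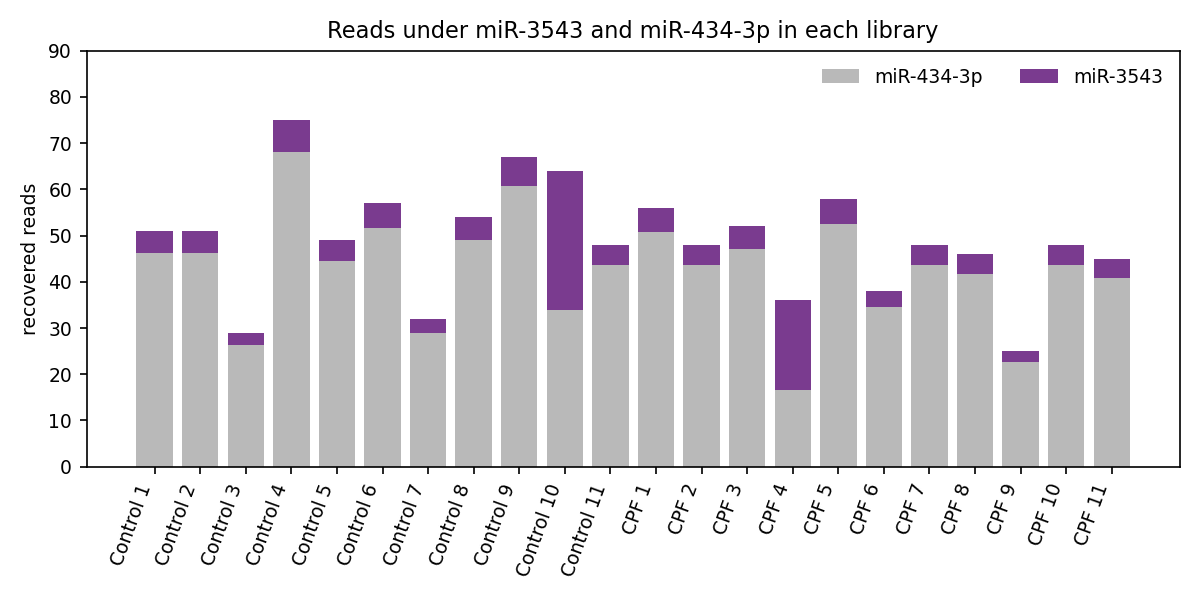
Recovered reads in each of 22 libraries under miR-434-3p (grey) and miR-3543 (purple), stacked. miR-3543 holds 9.3% of the reads in 20 libraries, 47.0% in Control replicate 10 and 53.8% in CPF replicate 4.

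Hairpins with both arms among the members were miR-3068, miR-3557, miR-3559 and miR-3583. miR-3068-5p was above miR-3068-3p in 22 of 22 libraries, with a ratio of mean RPM of 7.50 and a range over libraries of 3.91 to 60.0. miR-3557-5p was above miR-3557-3p in 22 of 22 libraries, with a ratio of means of 437. This ratio depends on how reads fell on each pair. miR-3557-5p held 100% of the reads of its pair with miR-378a-3p. miR-3557-3p held 50.0% of those of its pair with miR-378a-5p. miR-3559-5p was above miR-3559-3p in 15 of 22 libraries, at means of 22.5 and 3.92 RPM (ratio 5.75), both below the floor. miR-3583-5p and miR-3583-3p were each above 0 in 1 library.

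By position, 9 of the 47 matched members lie on chromosome 6, 7 on chromosome 1 and 6 on X. On chromosome 6, 7 lie between 134321165 and 134579493, in the Dlk1-Dio3 region, and 6 of these (miR-3543, miR-3544, miR-3576, miR-3578, miR-3579 and miR-3592) are on the minus strand. Only miR-6331 is on the plus strand there, and it alone of the 7 has no opposite-strand partner. In protein-coding gene spans, 11 members lie on the strand of the gene and 10 on the other, 7 lie in a span whose strand is not in the tables used, and 19 lie in none. Among those on the gene's strand are miR-3552 in the serotonin receptor gene Htr2c, above 0 in 4 libraries, and miR-3120 in the dynamin gene Dnm3, above 0 in 4 libraries.

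No late-numbered name was called between CPF and Control. limma was fitted to log2(RPM + 1) over 273 names that reached 10 RPM in 11 or more libraries, and p-values were adjusted by the Benjamini-Hochberg method (threshold 0.05). It called 2 of the 273, or 0.733% (miR-132-3p and miR-212-5p, both higher in CPF and neither late-numbered). Of the 51 members 25 were tested, 0 were called and 1 had an unadjusted p under 0.05, beside 18 of 273 names (6.59%). The median log2 fold change was 0.10 over the 25 members and 0.02 over all 273 names, and 16 of 25 members (64.0%) and 53.1% of the 273 names were above 0. The members' count was not stable over fits, with 11 of 25 above 0 without Control replicate 7, 3 of 8 by edgeR and 20 of 42 by DESeq2. By edgeR on recovered reads 0 of 8 members tested were called, beside 4 of 140 names (2.86%), and by DESeq2 0 of 42, beside 5 of 416 (1.20%).

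The member with the smallest p was miR-3557-5p. It averaged 2895 ± 465 RPM in Control and 3350 ± 470 RPM in CPF (SD, n = 11 each), and 9 of 11 CPF libraries were above the Control median, 4 of them above every Control library. Its log2 fold change was 0.22 (SE 0.0944, confidence interval 0.02 to 0.41), with an adjusted p of 0.542 by limma with Benjamini-Hochberg adjustment. Without CPF replicates 7, 8 and 9 it was 0.18. Its reads cannot be told apart from those of miR-378a-3p, which was listed at 0 in every library.

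miR-3588 had the second smallest p. It averaged 371 ± 62.6 RPM in Control and 312 ± 59.6 RPM in CPF, and 10 of 11 CPF libraries were below the Control median, 5 of them below every Control library. Its log2 fold change was -0.25 (SE 0.124, interval -0.51 to 0.00, adjusted p = 0.748 by limma). miR-125b-5p, which covers the same bases on the opposite strand and was summed over several rows, had -0.07. The sum of both names, an alternative chosen after the values were seen, had -0.12 (adjusted p = 0.808 by limma). miR-3068-5p averaged 693 ± 73.3 RPM in Control and 627 ± 104 RPM in CPF, a log2 fold change of -0.15 (interval -0.35 to 0.04, adjusted p = 0.788 by limma), which was -0.07 without CPF replicates 7, 8 and 9. miR-3068-3p, from the same hairpin, had 0.18 (interval -0.49 to 0.84), and -0.07 without Control replicate 4. The 2 arms were not tested against each other.

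For the other abundant members the intervals bound what these libraries could show. miR-3586-3p averaged 41774 ± 3773 RPM in Control and 41706 ± 3660 RPM in CPF, with a log2 fold change of 0.00 and an interval of -0.12 to 0.11. miR-6331 had 0.02 (interval -0.26 to 0.31) and miR-3099 0.03 (-0.50 to 0.56), and both had a negative value in several alternative fits. miR-3065-3p had -0.32 (-0.72 to 0.09), where 6 CPF libraries were below every Control library and 1 was above them all, and -0.20 without CPF replicates 7, 8 and 9. Its sum with miR-338-5p had -0.17 (-0.38 to 0.05).

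The members with few reads had wide intervals. miR-3553 had a log2 fold change of 0.37 (interval -0.57 to 1.32), which was 0.05 without CPF replicates 7, 8 and 9, 0.09 without Control replicate 11 and -0.14 by edgeR. miR-3589 had 0.61 (-0.56 to 1.79), and 0.37 without those 3 CPF libraries, 0.12 without Control replicate 1 and 0.11 by DESeq2. Both intervals covered rises and falls. The reads of miR-3553 and miR-3589 cannot be told apart from those of their partners, miR-183-5p and miR-505-3p. miR-6329 had 0.14 (-0.47 to 0.75), miR-3596a 0.10 (-0.36 to 0.57) and miR-6321 -0.14 (-0.96 to 0.69), and each changed sign without those CPF libraries, to -0.06, -0.01 and 0.11. Among the names equal to a lower-numbered one, miR-3574 had -0.24 (-0.86 to 0.38), miR-3570 0.02 (-0.81 to 0.85) and miR-3578 0.96 (-0.56 to 2.48), and these values hold for miR-210-3p, miR-181a-1-3p and miR-369-5p as well, since they are 1 measurement under both names. miR-6315, above 0 in 5 Control and 9 CPF libraries and under the floor in both groups, had 1.40 (-0.46 to 3.26). That value rests on the 1 RPM added before the log, since it was 0.44 with 10 RPM added and 0.37 by DESeq2, and miR-3578 likewise had 0.25 with 10 RPM added.

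miR-3543 shows how the split of reads entered the comparison. It ranged from 42.9 to 412 RPM in Control (median 66.7) and from 48.0 to 270 RPM in CPF (median 59.1), and its log2 fold change was -0.22 (interval -0.91 to 0.47). Without Control replicate 10 it was 0.02. The sum with miR-434-3p, which does not depend on the split, had -0.24 with a narrower interval (-0.47 to 0.00, adjusted p = 0.669 by limma). Over all 24 pairs summed, with let-7a in place of let-7a-5p, limma tested 267 names and called 2, of which 0 held a late-numbered member. Of the 25 partner names 15 were tested and 0 called, with a median log2 fold change of -0.07. The lowest partner value was -1.20 for miR-24-1-5p (adjusted p = 0.533 by limma), at a mean of 2.14 reads, below the floor.

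**Figure D4:**
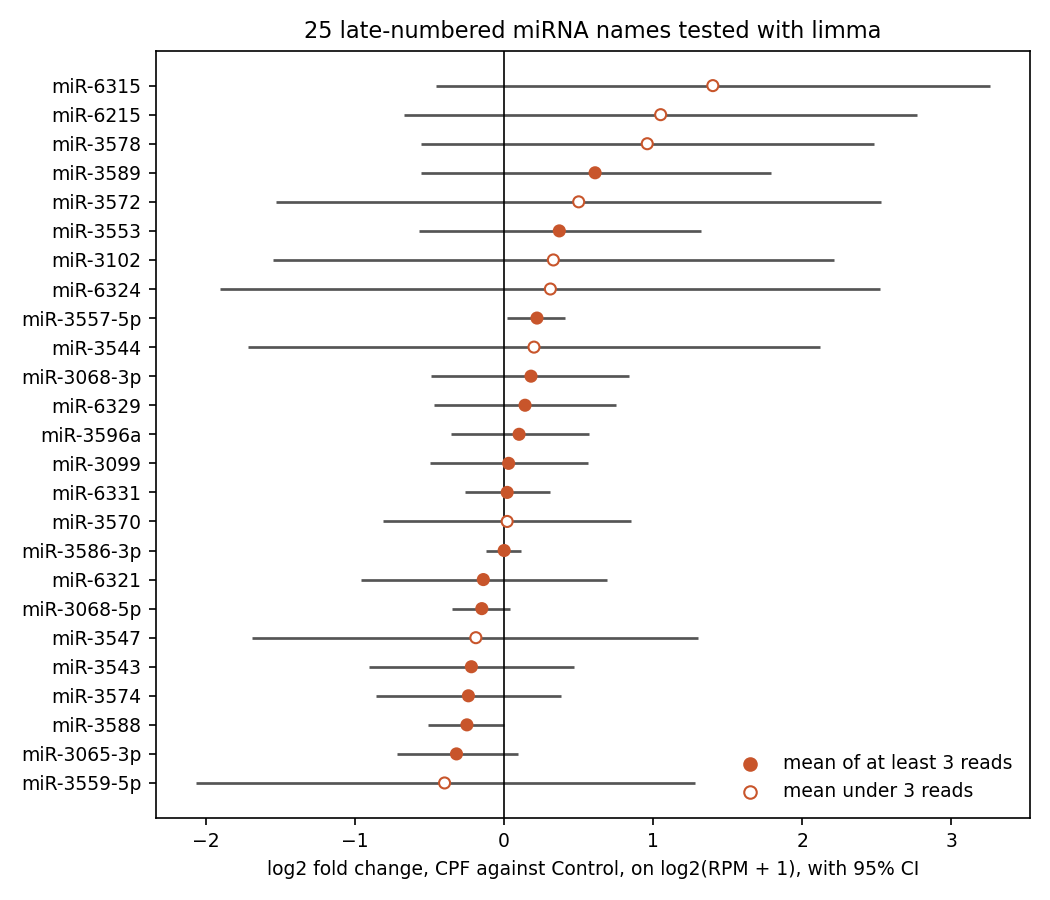
Log2 fold change of CPF against Control on the log2(RPM + 1) scale for the 25 late-numbered names tested with limma, with confidence intervals. Filled points have a mean of at least 3 reads, and every interval except that of miR-3557-5p (0.02 to 0.41) reaches 0.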

How the data were processed

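Small RNA was sequenced from 22 hippocampus (CA1) libraries, 11 Control and 11 CPF, grouped by the labels. The authors deposited a table of RPM per miRNA name for each library, per the file headers. CASAVA 1.8.2, cutadapt 1.2, Partek 6.6, Bowtie and the rat build rn4 are listed in the submitters' processing notes, without a role. The annotation of miRNAs and the handling of strand and of reads with several matches are not stated (not given in the sources used here).

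13 names on 29 rows were summed. The table of Control replicate 2 lacks 36 rows, which were treated as missing and not as 0. Reads were recovered from the RPM steps. Of the values of up to 20 reads, 92.3 to 97.4% per library were whole reads and 96.4 to 99.4% whole multiples of 0.5 read, within 0.05 read. They were rounded for edgeR 4.0.16 (quasi-likelihood, TMM), which called 4 names, and for DESeq2 1.42.0. Rounding moved fractions such as 0.5 read to a whole number, and its effect on the paired names was not tested. The main test was limma's trend method (version 3.58.1, R 4.3.3) on log2(RPM + 1), two-sided and without covariates. The same method, written apart from the main fit, was run on simulated counts, and its outcome is not given here. For low names, fold changes on this scale depend on the added 1 RPM, and libraries at 0 can enlarge or shrink them.

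The members and lists were chosen with earlier results of these data known. Named are members with a mean of at least 3 reads, those with a name of identical RPM, and the 2 with the smallest p in each direction. Others were named after their values were seen. Sequences and strands are RefSeq's, on GRCr8, matched by name. Alternatives were the pseudocount, filter, scaling, test, repeated and identical names, library code, replicate block, and libraries left out.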

Additional observations from a re-analysis of the deposited data

How the results depend on the processing

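Of the 18 members given a log2 fold change, 0 were called by limma, edgeR or DESeq2 in any alternative that tested them. The lowest adjusted p was 0.292, for miR-3557-5p by edgeR. In all fits that tested them, 8 had the same direction (miR-3586-3p, at 0.00, lay between -0.06 and 0.06). Not every fit tested every name. Of 17 settings other than leaving out 1 library, miR-3578 was tested in 11, miR-6315 in 13, miR-3589 in 14 and miR-3574 in 15. The count of all names called went from 2 to 4 by edgeR with TMM, 4 with RLE, 5 by DESeq2, and 1 within each subset of library codes (CPF codes starting with 3 against Control codes starting with 1, and 6 against 4), and was 2 to 3 with 1 library left out (3 without Control replicate 6 and without CPF replicate 1). Members with a name of identical RPM went from 9 to 20 when equality within 1 read sufficed and to 19 when 20 equal libraries sufficed. The share of RPM under late-numbered names moved by less than its SD in all alternatives run.

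The sign of small values was not stable, and the cause was not tested. By edgeR with TMM, edgeR with RLE and DESeq2, miR-3099 had -0.03, -0.07 and -0.05 and miR-3553 -0.14, -0.17 and -0.13. With code digits 3 against 1, miR-3543 had 0.25, miR-3596a -0.05, miR-6321 0.07, miR-6329 -0.08 and miR-3570 -0.28. With digits 6 against 4, miR-3099 had -0.25 and miR-6331 -0.06, and with the code subset as a term miR-3099 had -0.01. Without CPF replicates 7, 8 and 9, miR-3596a had -0.01, miR-6321 0.11 and miR-6329 -0.06. Leaving out 1 library gave -0.07 to 0.28 for miR-3068-3p, -0.11 to 0.13 for miR-3099, -0.42 to 0.02 for miR-3543, -0.30 to 0.05 for miR-6321, -0.01 to 0.25 for miR-6329, -0.04 to 0.10 for miR-6331 and -0.12 to 0.23 for miR-3570. Without a change of sign it gave 0.12 to 0.80 for miR-3589, 0.09 to 0.59 for miR-3553, 0.63 to 1.20 for miR-3578 and 0.04 to 0.19 for miR-3596a.

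With the replicate number as a block, limma called 2 names and 0 members. Same-numbered libraries correlated at -0.09 to 0.19, with 2 of 11 pairs over 0.1 and 1 Control library closest to its own number, so the numbers were not taken to pair the libraries. The sums of a member with its partner were added after the data were seen. Depth limits every name under 3 reads on average, and no depth separates names whose values are fixed shares of a sum.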

Other observations

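Of the 14 names listed at 0 in every library, 7 were neither late-numbered nor the opposite-strand partner of a late-numbered name: let-7f-2-3p, miR-130a-5p, miR-151-5p, miR-196b-5p, miR-218b, miR-483-3p and miR-9b-3p. Over the whole table, pairs of names with equal RPM in every library and at least 5 libraries above 0 numbered 6, and each held a late-numbered name.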
